A study of Mus musculus with 12 samples.

Results

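PD325901, a small molecule inhibitor of the kinases MEK1 and MEK2, was compared with its vehicle DMSO in cultured mouse leukaemia cells, and the response is described here across all measurable genes. Every gene with a mean of at least 1 FPKM (fragments mapped to a gene, scaled to transcript length and library size) over the 3 PD325901 and the 3 DMSO libraries was taken, which gave 10375 of the 23234 genes in the deposited table. Psap, the precursor of the lysosomal saposins, was left out because the table lists it at 0 in all 3 PD325901 libraries.

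The cells were primary acute myeloid leukaemia (AML) cells of genotype NRASG12V/Mll-AF9 from mice of an (FVB/n X C57/BL/6J) F1 background, so the vehicle cells carry the activated RAS and the MLL fusion as well. They were treated for 24 h with 20 µM PD325901 or with DMSO, in RPMI with 10% FBS and GM-CSF at 1 ng/ml, and total RNA of 3 libraries per group was sequenced. The other two groups of the study received 26 µM RAD001 (everolimus, an inhibitor of mTOR complex 1) or 20 µM GDC0941 (an inhibitor of class I PI3 kinases) for the same time. The labels do not say what drives NRASG12V, how many leukaemias or mice the cells came from, or whether libraries 1 to 3 of a group were separate cultures, so the p-values reflect library-to-library variation alone, which may be technical.

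RAS carries growth signals through the kinases RAF, MEK and ERK. Active ERK enters the nucleus and induces immediate early and ETS transcription factors and MYC, together with DUSP phosphatases and Sprouty and Spred proteins that damp the same pathway. In myeloid cells the pathway carries part of the signal of cytokine receptors such as that for GM-CSF, and its strength is known to bear on the choice between proliferation and maturation.

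The 6 libraries were alike in scale, with summed values of 462335 to 531934 FPKM with PD325901 and 483227 to 502370 FPKM with DMSO when Psap was set aside. Spearman correlations across genes were 0.985 to 0.994 within PD325901, 0.979 to 0.996 within DMSO and 0.912 to 0.935 between the groups. Library 1 stood apart from libraries 2 and 3 in both groups, and values without it are given where it decides a result. Markers of myeloid cells summed to 6282 to 7925 FPKM with PD325901 and 5131 to 5336 FPKM with DMSO, with Lyz2 listed at 0 throughout and 4 of 9 tested higher and 2 lower. The markers of MLL-AF9 leukaemia summed to 217 to 232 FPKM with PD325901 and 199 to 233 FPKM with DMSO. In that list Csf2rb was the highest member and the highest single value was 174 FPKM, while 2 of 7 tested were lower and 0 higher. Markers of T and NK, B, erythroid and stromal cells each summed to at most 10.2 FPKM in any of the 6 libraries. In bulk RNA, fewer cells of a type and less RNA per cell cannot be told apart.

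The comparison asks which transcripts differed after a day of MEK inhibition. PD325901 lowered more genes than it raised: 1948 genes (18.8%) were higher and 2920 (28.1%) lower at an adjusted p under 0.05 by limma, together 46.9% of those tested. Falls were also the larger changes. On the log2(FPKM + 1) scale, 307 genes (2.96%) rose and 613 (5.91%) fell by at least 1, 29 rose and 92 fell by at least 2, and 30 fell by at least 3 while none rose that far. Of the calls, 1911 were changes of less than 0.5. The median difference over all genes was -0.06, and all differences below are PD325901 minus DMSO on this scale, ± SE, which understates the change of genes of few FPKM. After quantile normalization the split was 2740 higher and 2525 lower, so the excess of falls among all calls depends on the scaling, while the excess among large changes was then 527 falls of at least 1 beside 429 rises. Without library 1 of every group 2319 of 10331 genes were higher and 3414 lower. With the replicate number as a block 2156 of 10375 were higher and 3150 lower. List counts given below for these settings stand beside these totals.

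**Figure D1:**
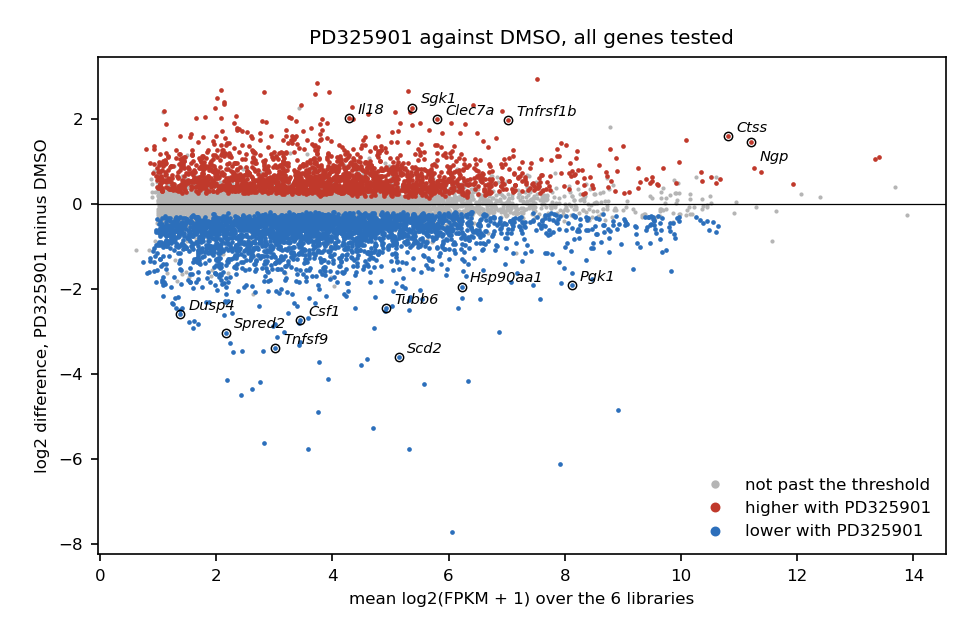
Log2 difference between PD325901 and DMSO (y axis) against mean log2(FPKM + 1) over the 6 libraries (x axis), 1 point per gene tested; red and blue points passed an adjusted p under 0.05 and circles mark genes described in the text. The falls reach much further than the rises, with 30 genes lower by at least 3 and none higher by as much.

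Changes of nearly all-or-none size went mostly downward. Below 1 FPKM in every PD325901 library and at 5 FPKM or more in every DMSO library were 12 genes, namely Bcl2, Cdh1, Cdh17, Cxcl2, Cyp2s1, Dmpk, Egr1, Etv5, Flrt2, Mmp13, Serpinb2 and Spred2. The reverse held for 4 genes, Ear2, Emr4, Lrrc14b and Sorbs3. These limits were set after the values were seen.

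Several of the largest changes belong to no list described below. Irg1, which makes the macrophage metabolite itaconate, measured 1.15, 3.18 and 4.96 FPKM in the PD325901 libraries, against 48.4, 45.3 and 52.0 FPKM in the DMSO libraries (log2 difference -3.71 ± 0.29, adjusted p = 4.46e-06 by limma). Kcnn4, a calcium-activated potassium channel, measured 3.27, 6.44 and 5.93 FPKM in the PD325901 libraries, against 85.2, 80.3 and 82.6 FPKM in the DMSO libraries (log2 difference -3.79 ± 0.24, adjusted p = 1.29e-06 by limma). The G protein regulator Rgs1 (-3.24 ± 0.56), the metallothionein Mt2 (-2.79 ± 0.62), the water and glycerol channel Aqp9 (-2.88 ± 0.42) and the glutaminyl cyclase Qpct (-2.68 ± 0.12) were also among the 40 largest falls. Among the 40 largest rises, Cd7, a lymphoid surface protein that immature myeloid cells can carry, measured 21.1, 19.5 and 16.1 FPKM in the PD325901 libraries, against 4.97, 2.98 and 3.71 FPKM in the DMSO libraries (log2 difference 2.04 ± 0.23, adjusted p = 4.78e-05 by limma). Gpx3, a secreted glutathione peroxidase, measured 69.9, 42.7 and 42.3 FPKM in the PD325901 libraries, against 10.5, 11.7 and 9.96 FPKM in the DMSO libraries (log2 difference 2.13 ± 0.18, adjusted p = 7.95e-06 by limma). Both were higher in every PD325901 library than in any DMSO library. The selenium carrier Sepp1 (2.20 ± 0.30), the sorting receptor Sort1 (2.17 ± 0.18), the adhesion receptor Cd97 (2.18 ± 0.26) and the sterol hydroxylase Cyp27a1 (1.95 ± 0.21) rose too. Kallikrein genes of the near-identical Klk1b family rose, Klk1b27 (2.35 ± 0.18), Klk1b1 (2.03 ± 0.24) and Klk1b11 (1.90 ± 0.44), but their reads can be shared and their values are uncertain.

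Negative regulators that ERK itself induces fell. The list of dual-specificity phosphatases (DUSPs), Sprouty and Spred genes has 16 members in the table, of which 4 were under the 1 FPKM minimum. Of the others, 8 of 12 members tested (66.7%) were lower, against 28.1% of all genes, none was higher, and the median difference was -1.27. Spred1, which keeps RAS from activating RAF, measured 1.64, 2.06 and 2.45 FPKM in the PD325901 libraries, against 25.2, 17.5 and 19.9 FPKM in the DMSO libraries (log2 difference -2.83 ± 0.19, adjusted p = 1.94e-06 by limma). Its relative Spred2 measured 0.366, 0.792 and 0.566 FPKM in the PD325901 libraries, against 13.1, 10.2 and 12.2 FPKM in the DMSO libraries (log2 difference -3.03 ± 0.24, adjusted p = 5.99e-06 by limma). All PD325901 libraries lay far below all DMSO libraries for both genes.

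The ERK phosphatase Dusp4 was close to absent with the inhibitor, at 0.0258, 0.119 and 0.0452 FPKM with PD325901 and 9.19, 3.83 and 4.33 FPKM with DMSO (log2 difference -2.59 ± 0.42, adjusted p = 0.000499 by limma). Dusp6, which acts on cytoplasmic ERK, kept a few FPKM, at 5.24, 6.67 and 5.63 FPKM with PD325901 and 118, 66.7 and 78.3 FPKM with DMSO (log2 difference -3.66 ± 0.17, adjusted p = 2.66e-07 by limma). The smaller falls were those of Dusp7 (-0.80 ± 0.14), Dusp16 (-0.98 ± 0.22) and the feedback inhibitor Spry2 (-1.55 ± 0.31), and the log2 difference of Dusp16 was -0.65 without library 1 of every group. Dusp1, a stress-induced phosphatase of nuclear MAP kinases, measured 7.83, 13.5 and 3.55 FPKM with PD325901 and 46.3, 51.2 and 11.9 FPKM with DMSO, and its difference missed the threshold (log2 difference -1.92 ± 0.74, adjusted p = 0.0523 by limma). Its DMSO libraries spread widely, with library 3 far below the other two. Its call depended on the fit, with an adjusted p of 0.0196 by limma without DMSO library 3, 0.0310 in the 6 PD325901 and DMSO libraries alone and 0.00091 in those 6 with the replicate number as a block.

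The promoter of Dusp6 is shown for its place at the head of that list, as RefSeq gives it for GRCm38.p6, from 250 bases before to 50 bases after the transcription start, at chr10:99262981-99263280 on the plus strand. The capitals mark its single match to CCAAT, the core of NF-Y sites, read on the other strand.
Dusp6: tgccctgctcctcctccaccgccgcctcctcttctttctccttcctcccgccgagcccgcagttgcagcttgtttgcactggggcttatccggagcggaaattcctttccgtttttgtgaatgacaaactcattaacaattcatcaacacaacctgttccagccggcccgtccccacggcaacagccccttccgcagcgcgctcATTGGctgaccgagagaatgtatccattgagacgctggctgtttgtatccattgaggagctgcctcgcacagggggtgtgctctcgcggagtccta
The window holds no match to the ETS motif CCGGAAG, the AP-1 motif TGANTCA, the E-box CACGTG or the E2F motif TTCCCGC on either strand. Over all genes, 8331 of 10375 (80.3%) matched a RefSeq window, and the ETS motif was in 21.98% of the windows of genes that were lower, 14.0% of those that were higher and 19.4% of all windows tested. For larger changes the share was lower, at 12.8% of the windows of genes lower by at least 1 and 5.15% of those higher by at least 1. A match describes letters, not a bound site.

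Among ETS, AP-1 and EGR factors, 11 of 25 were lower (44.0%) and 2 higher (8.0%), beside 28.1% and 18.8% of all genes (median -0.39). Egr1, the immediate early zinc finger factor, was below 1 FPKM in every PD325901 library, at 0.4003, 0.530 and 0.439 FPKM with PD325901 and 18.1, 16.6 and 12.1 FPKM with DMSO (log2 difference -3.49 ± 0.23, adjusted p = 1.84e-06 by limma). Egr3 and Fosl1 (FRA-1, a FOS relative stabilised by ERK) were nearly silent as well, with 0.188, 0.108 and 0.124 FPKM with PD325901 and 7.07, 6.57 and 3.01 FPKM with DMSO for Egr3 (log2 difference -2.46 ± 0.29, adjusted p = 7.32e-05 by limma), and 0.0392, 0.0451 and 0.0699 FPKM with PD325901 and 7.26, 2.84 and 5.10 FPKM with DMSO for Fosl1 (log2 difference -2.46 ± 0.23, adjusted p = 1.41e-05 by limma). Ets2, an ETS factor that ERK phosphorylates, measured 4.23, 3.17 and 3.26 FPKM with PD325901 and 35.8, 16.6 and 17.0 FPKM with DMSO (log2 difference -2.32 ± 0.29, adjusted p = 8.78e-05 by limma). The PEA3 factor Etv5 went to 0.127, 0.0731 and 0.0418 FPKM with PD325901, against 19.4, 17.1 and 17.7 FPKM with DMSO (log2 difference -4.14 ± 0.19, adjusted p = 2.66e-07 by limma), and its relative Etv1 measured 0.0146, 0.0505 and 0.0257 FPKM with PD325901 and 2.95, 2.35 and 2.81 FPKM with DMSO (log2 difference -1.84 ± 0.13, adjusted p = 2.65e-06 by limma). Not every immediate early gene passed. The differences of Ier3 (0.14 ± 0.19, adjusted p = 0.578), Atf3 (0.20 ± 0.23, adjusted p = 0.505) and Junb (-0.39 ± 0.20, adjusted p = 0.135), which were among the most abundant of the list, did not pass. Junb passed in the 6 PD325901 and DMSO libraries alone, with an adjusted p of 0.0153 by limma, and of 0.0224 with the replicate number as a block.

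**Figure D2:**
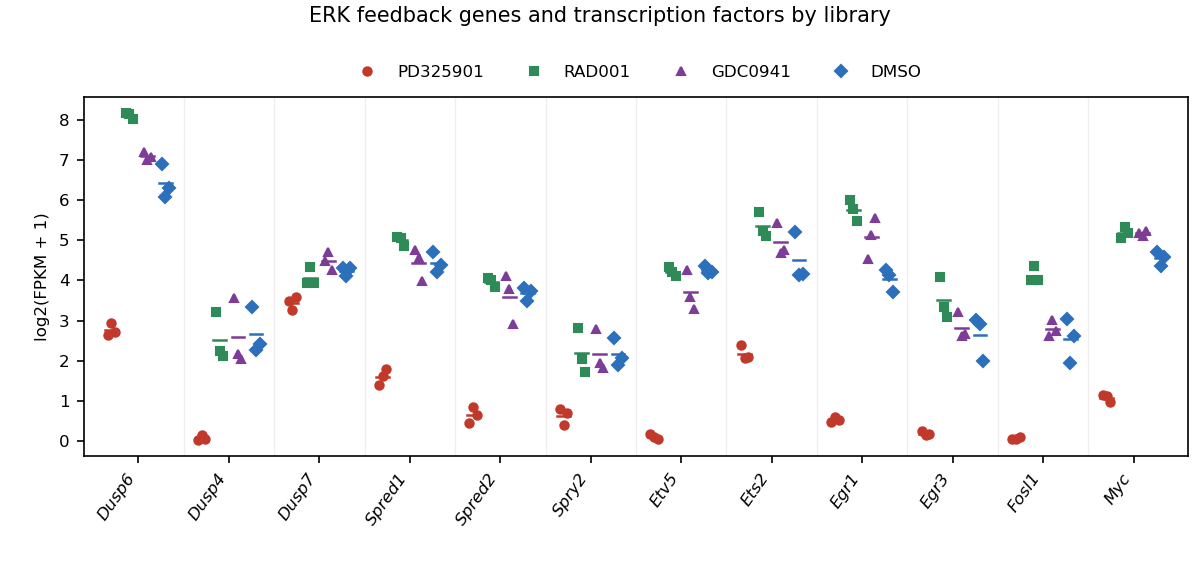
Log2(FPKM + 1) of ERK feedback genes and of transcription factors downstream of ERK in each library (points), with PD325901, RAD001, GDC0941 and DMSO from left to right within a gene and the group mean as a bar. For each gene drawn, the 3 PD325901 libraries lie below the 3 DMSO libraries.

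The genes of the cascade itself were not lowered as a group (median -0.05, or 0.06 after quantile normalization). Of 33 tested, 11 were higher (33.3%) and 5 lower (15.2%), beside 18.8% and 28.1% of all genes. Mapk3, which encodes ERK1, measured 198, 161 and 165 FPKM in the PD325901 libraries, against 107, 92.4 and 94.4 FPKM in the DMSO libraries (log2 difference 0.82 ± 0.10, adjusted p = 9.29e-05 by limma). The adaptor Grb2 (0.42 ± 0.10), the RAS-related GTPase Rras2 (1.06 ± 0.21) and the RAS exchange factors Rasgrp2 (0.89 ± 0.17) and Rasgrp4 (0.86 ± 0.11) were higher too. Rasa2, a GTPase activating protein for RAS, fell to 1.06, 1.35 and 1.40 FPKM with PD325901, against 7.19, 6.18 and 7.21 FPKM with DMSO (log2 difference -1.79 ± 0.11, adjusted p = 1.29e-06 by limma). The drug's targets Map2k1 and Map2k2 averaged 53.1 ± 2.14 FPKM with PD325901 and 66.6 ± 9.75 FPKM with DMSO for Map2k1 (log2 difference -0.31 ± 0.11, adjusted p = 0.0361 by limma), and 42.6 ± 3.16 FPKM with PD325901 and 52.9 ± 2.28 FPKM with DMSO for Map2k2 (log2 difference -0.31 ± 0.10, adjusted p = 0.0305 by limma). Neither call held in every leave-out, with an adjusted p of 0.0524 to 0.140 by limma without PD325901 library 1, 2 or 3 or DMSO library 1 for Map2k1 and an adjusted p of 0.0515 to 0.101 by limma without PD325901 library 2 or 3 or DMSO library 1, 2 or 3 for Map2k2, and Map2k1 differed by -0.20 without DMSO library 1. Nras, whose mutant and normal transcripts cannot be told apart by symbol, averaged 26.3 ± 1.501 FPKM with PD325901 and 30.0 ± 1.77 FPKM with DMSO (log2 difference -0.19 ± 0.07, adjusted p = 0.0590 by limma).

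Most cytokine receptor genes that passed rose, with 15 of 28 higher, or 53.6% against 18.8% of all genes, and 3 lower (median 0.37). The largest rise among those in the list was that of Tnfrsf1b, the second receptor for TNF, at 245, 258 and 268 FPKM in the PD325901 libraries, against 57.9, 63.0 and 73.0 FPKM in the DMSO libraries (log2 difference 1.98 ± 0.27, adjusted p = 0.000177 by limma). The G-CSF receptor Csf3r (1.67 ± 0.12), the IL-6 receptor Il6ra (1.33 ± 0.19), the IL-10 receptor Il10ra (1.22 ± 0.15) and the M-CSF receptor Csf1r (0.68 ± 0.12) followed. The alpha chain of the receptor for the GM-CSF in the medium, Csf2ra, averaged 204 ± 17.3 FPKM with PD325901 and 151 ± 9.89 FPKM with DMSO (log2 difference 0.43 ± 0.10, adjusted p = 0.00579 by limma). Among JAK, STAT, SOCS and PIM genes, 11 of 30 were higher (36.7%) and 4 lower (13.3%, or 1 gene after quantile normalization), beside 18.8% and 28.1% of all genes. The STAT5-induced inhibitors Socs2 (1.41 ± 0.29) and Cish (1.07 ± 0.24) rose.

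Genes that run the cell cycle fell broadly. The transcript of Myc, a driver of growth and division, fell to 1.202, 1.17 and 0.962 FPKM with PD325901, against 25.1, 19.5 and 23.03 FPKM with DMSO (log2 difference -3.47 ± 0.10, adjusted p = 1.44e-08 by limma), while MAX partners that antagonise MYC rose, Mxi1 (0.80 ± 0.17), Mxd4 (0.62 ± 0.19) and Mxd1 (0.52 ± 0.18). Single libraries decided part of these calls, with an adjusted p of 0.0635 to 0.0858 by limma without PD325901 library 2 or 3 or DMSO library 1 for Mxd4 and an adjusted p of 0.0544 to 0.0810 by limma without PD325901 library 1, 2 or 3 or DMSO library 2 or 3 for Mxd1. Among cyclins, CDKs and their inhibitors 19 of 33 were lower and 4 higher (median -0.47). Cyclin D2, encoded by Ccnd2, measured 1.09, 2.12 and 2.35 FPKM with PD325901 and 18.9, 25.5 and 26.6 FPKM with DMSO (log2 difference -3.13 ± 0.19, adjusted p = 1.29e-06 by limma), and Ccnd1 measured 3.89, 2.69 and 3.05 FPKM with PD325901 and 131, 176 and 177 FPKM with DMSO (log2 difference -5.27 ± 0.43, adjusted p = 6.46e-06 by limma). Cyclin D3 went the other way, with 123, 104 and 107 FPKM with PD325901 and 102, 88.1 and 88.0 FPKM with DMSO for Ccnd3 (log2 difference 0.26 ± 0.10, adjusted p = 0.0474 by limma), but with an adjusted p of 0.0730 to 0.162 by limma without PD325901 library 1 or 3 or DMSO library 2 or 3. Cdk6, the D-cyclin partner known as a dependency of MLL-AF9 leukaemia, measured 1.29, 2.74 and 2.44 FPKM with PD325901 and 19.5, 9.09 and 9.51 FPKM with DMSO (log2 difference -2.07 ± 0.43, adjusted p = 0.00244 by limma). The G1/S cyclins Ccne1 (-1.47 ± 0.21) and Ccne2 (-1.50 ± 0.28) and the CDK subunit Cks1b (-1.66 ± 0.23) fell too. The differences of the inhibitors Cdkn1a (-0.26 ± 0.15, adjusted p = 0.183) and Cdkn2a (-0.18 ± 0.17, adjusted p = 0.407) did not pass.

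DNA replication genes fell nearly as 1 block, with 40 of 45 (88.9%) lower and 0 higher (median -0.96). Subunits of the MCM helicase moved by similar amounts: Mcm2 (-1.52 ± 0.27), Mcm3 (-1.53 ± 0.27), Mcm5 (-1.68 ± 0.29), Mcm6 (-1.60 ± 0.28) and Mcm7 (-1.60 ± 0.25). Mcm5 measured 6.59, 8.05 and 6.97 FPKM with PD325901 and 22.7, 27.0 and 26.2 FPKM with DMSO (log2 difference -1.68 ± 0.29, adjusted p = 0.000769 by limma). The single-strand binding protein Rpa2 (-1.47 ± 0.16) and the sliding clamp Pcna (-1.35 ± 0.18) fell with them. In homologous recombination and Fanconi genes the fall was narrower, 14 of 26 (median -0.47), with Brca1 (-1.64 ± 0.31) among the falls, whereas the difference of the MRN subunit Nbn (-0.18 ± 0.14, adjusted p = 0.340) did not pass.

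Mitotic genes fell with few exceptions. Of kinetochore, spindle and cytokinesis genes 59 of 64 (92.2%) were lower and 1 higher (median -1.001). Cyclin B1, encoded by Ccnb1, measured 5.05, 6.06 and 6.52 FPKM with PD325901 and 19.3, 18.3 and 19.9 FPKM with DMSO (log2 difference -1.56 ± 0.39, adjusted p = 0.00683 by limma). Its kinase Cdk1 (-1.53 ± 0.36), Ccna2 (-1.50 ± 0.40), the survivin gene Birc5 (-1.47 ± 0.41), topoisomerase Top2a (-1.46 ± 0.38) and the ubiquitin-conjugating enzyme Ube2c (-1.34 ± 0.39) lay in a narrow band around it. The DNA methylation partner Uhrf1 (-1.79 ± 0.38) and the chromatin remodeller Hells (-1.51 ± 0.22), which act at replication forks, and the Polycomb methyltransferase Ezh2 (-0.90 ± 0.14) fell as well.

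Promoter windows of both groups were searched for motifs of cell cycle genes. The E2F motif TTCCCGC was in 37.8% of the RefSeq windows of DNA replication genes and 8.37% of all windows tested, and CCAAT was in 75.4% of the windows of kinetochore genes and 37.9% of all windows tested. An example of each is shown from GRCm38.p6, from 250 bases before to 50 bases after the start on the minus strand. Mcm7 lies at chr5:138171834-138172133 and its capitals mark the E2F match, read on the other strand, while its CCAAT matches stay in lower case. Ccnb1 lies at chr13:100786437-100786736 and its capitals mark CCAAT on either strand.
Mcm7: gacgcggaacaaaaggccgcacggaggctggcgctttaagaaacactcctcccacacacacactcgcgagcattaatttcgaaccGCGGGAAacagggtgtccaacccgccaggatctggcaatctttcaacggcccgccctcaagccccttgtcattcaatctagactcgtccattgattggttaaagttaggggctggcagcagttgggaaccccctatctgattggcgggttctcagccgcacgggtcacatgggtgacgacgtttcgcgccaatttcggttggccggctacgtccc
Ccnb1: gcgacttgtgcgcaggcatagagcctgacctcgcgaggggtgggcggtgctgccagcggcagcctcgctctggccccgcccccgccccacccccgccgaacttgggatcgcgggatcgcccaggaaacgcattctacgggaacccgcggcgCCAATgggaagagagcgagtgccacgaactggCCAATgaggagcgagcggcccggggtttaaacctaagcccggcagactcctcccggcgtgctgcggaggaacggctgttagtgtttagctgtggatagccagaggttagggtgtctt
The matches were counted on both strands, and the shares describe these windows without a test.

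Genes that supply nucleotides and amino acids fell as well. Of de novo nucleotide synthesis genes 26 of 32 were lower and 1 higher (median -0.90). Impdh1, which makes guanine nucleotides, measured 2.497, 2.51 and 3.03 FPKM with PD325901 and 17.1, 12.8 and 12.9 FPKM with DMSO (log2 difference -2.04 ± 0.20, adjusted p = 1.86e-05 by limma). Ctps, which makes CTP, measured 1.08, 1.32 and 1.49 FPKM with PD325901 and 7.16, 8.07 and 8.53 FPKM with DMSO (log2 difference -1.96 ± 0.17, adjusted p = 1.06e-05 by limma). The ribonucleotide reductase subunits Rrm1 (-1.56 ± 0.28) and Rrm2 (-1.86 ± 0.44) and thymidine kinase Tk1 (-1.64 ± 0.36) fell, and the salvage enzymes Hprt (-0.46 ± 0.11) and Aprt (-0.36 ± 0.09) fell by less. In serine, glycine and one-carbon metabolism 13 of 17 were lower and 0 higher (median -1.19), led by the serine synthesis enzymes Psat1 (-2.93 ± 0.18) and Phgdh (-2.11 ± 0.14) and the S-adenosylhomocysteine hydrolase Ahcy (-1.73 ± 0.22).

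Almost every cytosolic aminoacyl-tRNA synthetase gene, 22 of 23, was lower (median -0.88). Rars, the arginine enzyme, measured 19.9, 19.8 and 22.5 FPKM with PD325901 and 50.6, 55.8 and 57.9 FPKM with DMSO (log2 difference -1.36 ± 0.08, adjusted p = 1.27e-06 by limma). Iars, the isoleucine enzyme, measured 10.7, 12.5 and 12.8 FPKM with PD325901 and 32.6, 28.1 and 29.2 FPKM with DMSO (log2 difference -1.25 ± 0.15, adjusted p = 6.96e-05 by limma). Of the mitochondrial synthetases 8 of 17 were lower (median -0.27). Of amino acid transporters 9 of 19 were lower (47.4%) and 3 higher (15.8%), beside 28.1% and 18.8% of all genes. The arginine transporter Slc7a1 (-1.49 ± 0.18), the glutamine transporter Slc1a5 (-1.31 ± 0.09) and Slc7a5 (-0.96 ± 0.13), a subunit of the leucine transporter LAT1, fell, and Slc43a2 (0.88 ± 0.12) and the lysosomal exporter Slc36a1 (0.93 ± 0.17) rose. Of the polyamine genes 7 of 12 were lower (58.3%) and 3 higher (25.0%). The synthesis enzymes Odc1 (-1.53 ± 0.28), Srm (-2.16 ± 0.15) and Sms (-1.55 ± 0.15) fell, and the catabolic enzyme Sat1 rose, at 779, 645 and 653 FPKM with PD325901 and 262, 293 and 283 FPKM with DMSO (log2 difference 1.30 ± 0.14, adjusted p = 3.44e-05 by limma).

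Genes that build ribosomes fell. Of RNA polymerase I and rRNA processing genes 55 of 65 (84.6%) were lower (median -0.81). The snoRNP proteins Nop56 (-1.61 ± 0.12), Nop58 (-2.17 ± 0.08), Dkc1 (-1.82 ± 0.14) and Gar1 (-1.78 ± 0.18) had the larger falls, and nucleophosmin, encoded by Npm1, measured 134, 141 and 158 FPKM with PD325901 and 316, 339.5 and 332 FPKM with DMSO (log2 difference -1.19 ± 0.09, adjusted p = 4.13e-06 by limma). Of cytosolic ribosomal protein genes 56 of 80 were lower with a median of -0.35, which became 41 and -0.25 after quantile normalization. Rps2 measured 589, 520.2 and 549 FPKM with PD325901 and 1104, 1295 and 1230.5 FPKM with DMSO (log2 difference -1.13 ± 0.14, adjusted p = 8.92e-05 by limma). Reads of ribosomal protein genes can be shared with their many processed pseudogenes, so single values of this family are uncertain. Mitochondrial ribosomal protein genes were lower in 45 of 75 (median -0.32).

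Of translation factors 33 of 62 were lower and 4 higher (7 higher after quantile normalization), with falls of the cap-binding protein Eif4e (-1.60 ± 0.11), the helicase Eif4a1 (-0.92 ± 0.09), Eif5a (-1.03 ± 0.13) and Eef1g (-1.15 ± 0.11), while the differences of the abundant elongation factors Eef1a1 (-0.16 ± 0.11, adjusted p = 0.231) and Eef2 (-0.18 ± 0.10, adjusted p = 0.169) did not pass. Splicing factors were lower in 51 of 68 (median -0.41), with Hnrnpa1 (-1.38 ± 0.12) and Snrpa1 (-1.35 ± 0.14) in front. Nuclear pore and transport genes were lower in 39 of 49 (median -0.58). Ran, the GTPase that sets the direction of nuclear transport, measured 50.3, 47.2 and 48.7 FPKM with PD325901 and 120.4, 140.2 and 133 FPKM with DMSO (log2 difference -1.41 ± 0.10, adjusted p = 3.53e-06 by limma), and its binding protein Ranbp1 (-1.66 ± 0.11) fell with it. Genes of the RNA exosome, tRNA modification and RNA polymerase III were lower in 31 of 45, with the tRNA methyltransferases Mettl1 (-1.51 ± 0.17) and Nsun2 (-1.22 ± 0.08) as examples.

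Chaperone and proteasome genes fell together with them. Every subunit of the CCT chaperonin and prefoldin list was lower except prefoldin Pfdn5 (0.26 ± 0.09), which did not pass when any single PD325901 or DMSO library was left out, giving 12 of 13 lower (median -0.71). Cytosolic heat shock genes were lower in 17 of 23, and Hsp90aa1 measured 36.8, 35.2 and 39.7 FPKM in the PD325901 libraries, against 157, 141 and 140.0 FPKM in the DMSO libraries (log2 difference -1.94 ± 0.15, adjusted p = 4.85e-06 by limma). Proteasome genes were lower in 37 of 46 (median -0.47), the assembly chaperone Psmg1 (-1.37 ± 0.15) most. In the endoplasmic reticulum 22 of 33 were lower and 1 higher (median -0.61). Hspa5 (BiP), the chief ER chaperone, measured 251, 189.8 and 193 FPKM with PD325901 and 742, 443 and 431 FPKM with DMSO (log2 difference -1.31 ± 0.21, adjusted p = 0.000496 by limma). Hyou1 (-1.35 ± 0.13), Creld2 (-1.37 ± 0.12), Manf (-1.28 ± 0.12) and the oxidase Ero1l (-1.59 ± 0.38) fell alongside. Tubulin genes were lower in 10 of 16 (median -0.82), with Tubb6 at 14.4, 12.1 and 9.67 FPKM with PD325901 and 80.1, 64.9 and 65.4 FPKM with DMSO (log2 difference -2.45 ± 0.19, adjusted p = 5.32e-06 by limma).

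**Figure D3:**
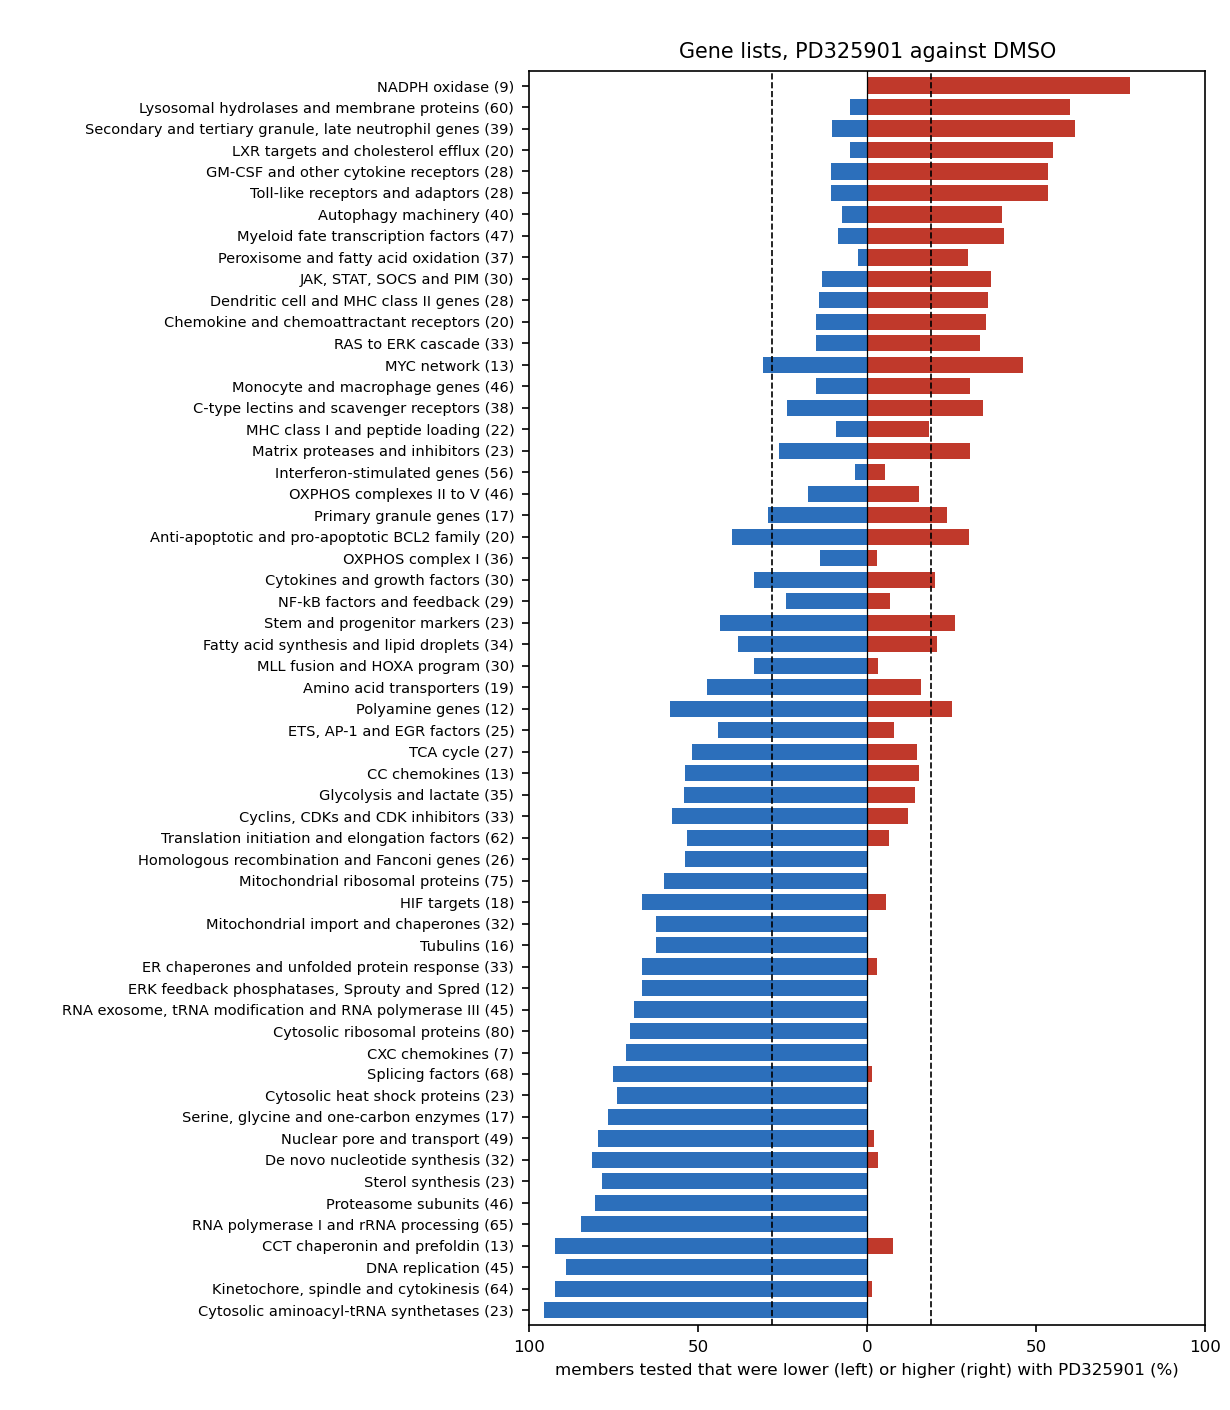
Share of the members tested of each gene list that were lower (blue, left) or higher (red, right) with PD325901, in percent, with the number tested in brackets; dashed lines mark 28.1% lower and 18.8% higher, the shares over all genes. Lists for synthesis and division lie at the bottom, with 95.7% of cytosolic aminoacyl-tRNA synthetases lower, and lists for lysosome, neutrophil and receptor genes at the top.

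Few respiratory chain genes passed. Complex I had 1 of 36 higher (2.8%) and 5 lower (13.9%), with a median of -0.09. Complexes II to V had 7 of 46 higher (15.2%) and 8 lower (17.4%), with a median of -0.08. Over all genes 18.8% were higher and 28.1% lower. Without library 1 of every group the counts became 1 higher and 16 lower for complex I, and 6 higher and 20 lower for complexes II to V. In that setting 2319 of all 10331 genes were higher and 3414 lower. After quantile normalization 5 and 12 were higher, beside 2740 of all 10375 genes. Of TCA cycle genes 14 of 27 were lower (51.9%) and 4 higher (14.8%), with Idh3a (-1.22 ± 0.16) and Mdh2 (-0.97 ± 0.09) among the falls and the cytosolic Idh1 (0.70 ± 0.12) among the rises. Import and chaperone genes of mitochondria fell in 20 of 32 (median -0.53), among them Hspd1 (-1.52 ± 0.12), Hspa9 (-1.30 ± 0.11) and Timm8a1 (-1.59 ± 0.16).

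Glycolytic genes fell in 19 of 35 and rose in 5 (median -0.68), and targets of the hypoxia-inducible factor HIF fell in 12 of 18 (median -0.77). Pgk1, phosphoglycerate kinase, measured 145, 139 and 144 FPKM in the PD325901 libraries, against 731, 445 and 473 FPKM in the DMSO libraries (log2 difference -1.90 ± 0.17, adjusted p = 1.06e-05 by limma). Tpi1, triosephosphate isomerase, measured 168, 132 and 142 FPKM with PD325901 and 503, 319.9 and 346 FPKM with DMSO (log2 difference -1.37 ± 0.25, adjusted p = 0.00112 by limma). Hk3, the hexokinase of myeloid cells, measured 80.8, 77.1 and 71.4 FPKM with PD325901 and 199.8, 209 and 204 FPKM with DMSO (log2 difference -1.41 ± 0.12, adjusted p = 1.02e-05 by limma). The HIF targets P4ha1 (-1.64 ± 0.31) and Pdk1 (-1.32 ± 0.34) and the glucose transporter Slc2a1 (-1.35 ± 0.25) were lower as well. DMSO library 1 was the highest of the 6 for Pgk1, Tpi1, P4ha1, Pdk1 and Slc2a1 but not for Hk3, with Slc2a1 at 93.9, 40.5 and 42.0 FPKM in the DMSO libraries, and without library 1 of every group the median was -0.47 for glycolysis and -0.60 for HIF targets and the difference of Slc2a1 -0.89, with 8 glycolytic genes higher. Ldhb, the lactate dehydrogenase subunit of oxidative tissues, rose to 7.86, 8.38 and 8.87 FPKM with PD325901, against 1.47, 2.35 and 1.61 FPKM with DMSO (log2 difference 1.75 ± 0.15, adjusted p = 1.09e-05 by limma).

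Genes of sterol synthesis fell, and most genes of lipid efflux and oxidation that passed rose. In the sterol pathway 18 of 23 fell and none rose (median -0.82). Lss, lanosterol synthase, measured 2.40, 3.35 and 3.48 FPKM with PD325901 and 12.7, 17.3 and 17.3 FPKM with DMSO (log2 difference -2.04 ± 0.28, adjusted p = 0.000204 by limma). Sqle, squalene epoxidase, measured 5.73, 8.79 and 9.95 FPKM with PD325901 and 20.6, 28.2 and 29.2 FPKM with DMSO (log2 difference -1.57 ± 0.27, adjusted p = 0.000709 by limma). The prenyl synthase Fdps (-1.55 ± 0.26) fell too, as did the regulator Srebf1 (-0.97 ± 0.10), which is counted with the LXR targets below. Of fatty acid synthesis and lipid droplet genes 13 of 34 were lower (38.2%) and 7 higher (20.6%), beside 28.1% and 18.8% of all genes. The counts were 16 and 14 without library 1 of every group and 13 and 12 after quantile normalization. Its desaturases had the larger falls. Scd2 measured 5.66, 11.3 and 11.5 FPKM in the PD325901 libraries, against 113, 121 and 133 FPKM in the DMSO libraries (log2 difference -3.61 ± 0.49, adjusted p = 0.000182 by limma). Fads2 measured 1.18, 2.32 and 3.34 FPKM in the PD325901 libraries, against 25.9, 22.6 and 25.0 FPKM in the DMSO libraries (log2 difference -3.01 ± 0.60, adjusted p = 0.00190 by limma). Both genes had no overlap between the groups. Fatty acid synthase Fasn (-1.81 ± 0.34), Acsl3 (-1.96 ± 0.28) and lipoprotein lipase Lpl (-1.62 ± 0.41) fell, and the fatty acid carrier Fabp3 (2.28 ± 0.24) rose.

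Among targets of the sterol sensor LXR and genes of cholesterol efflux 11 of 20 rose and 1, Srebf1, fell (median 0.61). Apoe measured 929.5, 373 and 372 FPKM with PD325901 and 38.2, 85.2 and 84.2 FPKM with DMSO (log2 difference 2.94 ± 0.63, adjusted p = 0.00294 by limma), with PD325901 library 1 far above the others. DMSO library 1 lay below DMSO libraries 2 and 3, so library 1 of both groups widened the difference. The efflux pump Abcg1 (1.00 ± 0.18), the partner receptor Rxra (1.11 ± 0.14), the lysosomal cholesterol carrier Npc2 (0.64 ± 0.14) and the acid lipase Lipa (1.03 ± 0.15) rose by less. Peroxisome and fatty acid oxidation genes rose in 11 of 37 (29.7%) and fell in 1 (2.7%), beside 18.8% and 28.1% of all genes. The counts were 17 and 1 after quantile normalization and 10 and 4 without library 1 of every group. Pparg, a nuclear receptor for fatty acids, measured 14.0, 7.10 and 8.52 FPKM with PD325901 and 1.94, 2.40 and 3.23 FPKM with DMSO (log2 difference 1.59 ± 0.20, adjusted p = 0.000118 by limma). Cpt1a, which brings fatty acids into mitochondria, measured 51.8, 44.4 and 43.8 FPKM with PD325901 and 15.5, 19.0 and 19.7 FPKM with DMSO (log2 difference 1.32 ± 0.17, adjusted p = 0.000136 by limma).

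Most lysosomal genes rose, with 36 of 60 (60.0%) higher and 3 lower (median 0.51). Ctss, the cathepsin of antigen presenting cells, measured 3756, 2748 and 2963 FPKM in the PD325901 libraries, against 778, 1181 and 1211 FPKM in the DMSO libraries (log2 difference 1.59 ± 0.27, adjusted p = 0.000744 by limma). Ctsh, an aminopeptidase of lysosomes, measured 453, 397 and 405 FPKM with PD325901 and 126, 184 and 175 FPKM with DMSO (log2 difference 1.39 ± 0.19, adjusted p = 0.000196 by limma). Pla2g15, the lysosomal phospholipase, measured 81.1, 54.1 and 62.2 FPKM with PD325901 and 20.5, 23.04 and 25.2 FPKM with DMSO (log2 difference 1.47 ± 0.13, adjusted p = 1.21e-05 by limma). In each of them all PD325901 libraries exceeded all DMSO libraries. Naaa (2.34 ± 0.39), Acp5 (2.67 ± 0.27) and Ctse (1.39 ± 0.21) rose too, whereas the most abundant cathepsin, Ctsd (0.24 ± 0.30, adjusted p = 0.540), did not pass. Tfeb, the transcription factor of lysosome genes, averaged 39.3 ± 1.96 FPKM with PD325901 and 17.9 ± 1.61 FPKM with DMSO (log2 difference 1.10 ± 0.09, adjusted p = 8.44e-06 by limma), and the mTORC1 regulators Rragd (1.21 ± 0.17) and Flcn (0.81 ± 0.22) rose as well. Of vacuolar proton pump genes 4 of 19 were higher (21.1%, near the 18.8% of all genes) and 2 lower (10.5%), or 8 and 2 after quantile normalization.

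The E-box CACGTG was in 23.7% of the windows of lysosomal genes and 10.5% of all windows tested. Sgsh, the lysosomal heparan sulfatase, gives an example on the minus strand of GRCm38.p6 at chr11:119355461-119355760, from 250 bases before to 50 after the start, with the E-box in capitals.
Sgsh: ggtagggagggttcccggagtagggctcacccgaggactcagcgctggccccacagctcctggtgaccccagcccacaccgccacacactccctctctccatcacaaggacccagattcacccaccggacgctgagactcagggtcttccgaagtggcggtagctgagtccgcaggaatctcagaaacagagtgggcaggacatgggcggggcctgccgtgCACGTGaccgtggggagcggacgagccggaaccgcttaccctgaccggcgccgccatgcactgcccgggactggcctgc
Sgsh itself measured 20.0, 17.3 and 17.6 FPKM with PD325901 and 8.05, 9.03 and 10.4 FPKM with DMSO (log2 difference 0.93 ± 0.11, adjusted p = 8.70e-05 by limma).

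Autophagy genes rose in 16 of 40 and fell in 3 (median 0.21). The initiating kinase Ulk1 (0.95 ± 0.14), the LC3 genes Map1lc3a (0.99 ± 0.18) and Map1lc3b (0.52 ± 0.07) and the mitophagy receptor Bnip3l (0.83 ± 0.10) rose. Among iron and heme genes the ferritin autophagy receptor Ncoa4 (1.18 ± 0.09) and the hepcidin regulator Hfe (1.54 ± 0.16) rose, whereas heme oxygenase fell, with 484, 529 and 572 FPKM with PD325901 and 1985, 1374 and 1450.1 FPKM with DMSO for Hmox1 (log2 difference -1.58 ± 0.24, adjusted p = 0.000324 by limma). The ferritin chains were among the most abundant transcripts of both groups and did not pass, Ftl1 (0.39 ± 0.16, adjusted p = 0.0654) and Fth1 (-0.27 ± 0.15, adjusted p = 0.158). Both depended on the setting. Ftl1 had an adjusted p of 0.0258 by limma in the 6 PD325901 and DMSO libraries alone with the replicate number as a block, but a difference of -0.18 after quantile normalization, where Fth1 was lower by limma with an adjusted p of 1.12e-05 (-0.99).

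Chemokine genes fell, and several of their receptors rose. Of CC chemokines 7 of 13 were lower and 2 higher (median -1.52; 4 higher without library 1 of every group), and of CXC chemokines 5 of 7 were lower (median -1.64). Ccl3, a macrophage inflammatory protein, measured 56.3, 33.7 and 33.8 FPKM in the PD325901 libraries, against 519, 274 and 257 FPKM in the DMSO libraries (log2 difference -3.02 ± 0.35, adjusted p = 5.64e-05 by limma). Ccl6 measured 309.8, 339 and 372 FPKM with PD325901 and 725, 1029.8 and 1250.3 FPKM with DMSO (log2 difference -1.52 ± 0.18, adjusted p = 5.84e-05 by limma). The related monocyte chemoattractants Ccl7 (-7.72 ± 0.58), Ccl2 (-6.13 ± 0.32) and Ccl12 (-5.78 ± 0.52) had the largest falls of the list. Chemoattractant receptors rose in 7 of 20 (35.0%) and fell in 3 (15.0%), beside 18.8% and 28.1% of all genes. The counts were 11 and 4 with the replicate number as a block and 11 and 5 without library 1 of every group. Cxcr4, the homing receptor for CXCL12, measured 104, 89.9 and 111 FPKM with PD325901 and 36.2, 42.7 and 48.1 FPKM with DMSO (log2 difference 1.25 ± 0.17, adjusted p = 0.000160 by limma). Ccr2, the receptor for the products of the falling Ccl2 and Ccl7 genes, measured 71.2, 114 and 114 FPKM with PD325901 and 27.6, 52.3 and 49.6 FPKM with DMSO (log2 difference 1.21 ± 0.38, adjusted p = 0.0217 by limma), but with an adjusted p of 0.0706 to 0.0864 by limma without PD325901 library 2 or 3 or DMSO library 1. The complement receptor C5ar1 (-1.54 ± 0.35) and Ccr1 (-0.91 ± 0.15) fell.

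Of cytokine and growth factor genes 10 of 30 were lower (33.3%) and 6 higher (20.0%), shares near the 28.1% and 18.8% of all genes, with a median of -0.51 and single large changes. Csf1, which encodes the macrophage growth factor M-CSF, measured 3.94, 2.63 and 3.21 FPKM in the PD325901 libraries, against 73.0, 16.1 and 16.7 FPKM in the DMSO libraries (log2 difference -2.74 ± 0.47, adjusted p = 0.000741 by limma). For Csf1, DMSO library 1 stood far above DMSO libraries 2 and 3. Tnf measured 12.03, 10.7 and 11.5 FPKM with PD325901 and 78.5, 34.9 and 63.0 FPKM with DMSO (log2 difference -2.19 ± 0.39, adjusted p = 0.000937 by limma). Tnfsf9 (4-1BB ligand) measured 1.11, 1.79 and 1.60 FPKM with PD325901 and 27.3, 21.1 and 27.2 FPKM with DMSO (log2 difference -3.39 ± 0.19, adjusted p = 7.91e-07 by limma). Il18 went the other way, at 50.5, 32.9 and 33.9 FPKM with PD325901 and 8.14, 10.1 and 7.81 FPKM with DMSO (log2 difference 2.03 ± 0.29, adjusted p = 0.000214 by limma). Of genes of NF-kB and its feedback 7 of 29 were lower (24.1%, near the 28.1% of all genes) and 2 higher (6.9%). The counts were 8 and 6 without library 1 of every group, and the inhibitor Nfkbia (-0.49 ± 0.30, adjusted p = 0.209 by limma) did not pass. In the 6 PD325901 and DMSO libraries alone with the replicate number as a block, Nfkbia had an adjusted p of 0.0279 by limma.

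Of matrix proteases and their inhibitors 7 of 23 were higher (30.4%) and 6 lower (26.1%), beside 18.8% and 28.1% of all genes. Serpinb2, the plasminogen activator inhibitor of macrophages, measured 0.640, 0.782 and 0.483 FPKM with PD325901 and 31.9, 12.5 and 12.4 FPKM with DMSO (log2 difference -3.47 ± 0.32, adjusted p = 1.41e-05 by limma), and its target Plau (-4.25 ± 0.34) fell as well. Adam8 measured 144, 126 and 112 FPKM with PD325901 and 525, 438 and 437 FPKM with DMSO (log2 difference -1.87 ± 0.12, adjusted p = 1.79e-06 by limma). Timp2, an inhibitor of matrix metalloproteases, rose to 67.9, 30.6 and 30.3 FPKM with PD325901, against 10.6, 8.10 and 9.10 FPKM with DMSO (log2 difference 2.00 ± 0.38, adjusted p = 0.00140 by limma). The integrin subunit Itgb5 (1.91 ± 0.23) rose, and the tetraspanin Cd81 (-1.47 ± 0.39) and P-selectin Selp (-1.86 ± 0.20) fell. In prostaglandin synthesis the phospholipase Pla2g4a (-2.11 ± 0.19) and the inducible cyclooxygenase Ptgs2 (-1.90 ± 0.32) fell and the constitutive cyclooxygenase Ptgs1 (1.01 ± 0.17) rose.

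Genes of neutrophil maturation rose. Of secondary and tertiary granule and late neutrophil genes 24 of 39 (61.5%) were higher and 4 lower (median 1.001). Ngp, a neutrophil granule protein, measured 4613, 3556 and 3648 FPKM in the PD325901 libraries, against 1233, 1528 and 1509 FPKM in the DMSO libraries (log2 difference 1.46 ± 0.45, adjusted p = 0.0189 by limma). Camp, the cathelicidin of secondary granules, measured 2208, 1679.7 and 1655 FPKM in the PD325901 libraries, against 548, 693 and 688 FPKM in the DMSO libraries (log2 difference 1.52 ± 0.44, adjusted p = 0.0152 by limma). Cd177, a neutrophil surface protein, measured 196, 143 and 148 FPKM with PD325901 and 51.6, 61.9 and 57.5 FPKM with DMSO (log2 difference 1.48 ± 0.28, adjusted p = 0.00139 by limma). PD325901 libraries exceeded DMSO libraries for each of them, although with an adjusted p of 0.0567 to 0.0596 by limma without PD325901 library 1 or DMSO library 1 for Ngp and an adjusted p of 0.0515 by limma without PD325901 library 1 for Camp. Slpi, a protease inhibitor, was an exception, at 259, 157 and 172 FPKM with PD325901 and 1049.5, 507 and 514 FPKM with DMSO (log2 difference -1.76 ± 0.28, adjusted p = 0.000505 by limma). The calprotectin genes S100a8 (1.07 ± 0.17) and S100a9 (1.11 ± 0.19) rose, and S100a9 had the highest mean FPKM of all genes in the PD325901 libraries. All members of the NADPH oxidase list that passed were higher, 7 of 9 (median 0.46). The voltage-gated proton channel Hvcn1 measured 72.6, 64.3 and 69.2 FPKM with PD325901 and 33.1, 24.4 and 24.9 FPKM with DMSO (log2 difference 1.30 ± 0.20, adjusted p = 0.000327 by limma), and the catalytic subunit Cybb (0.74 ± 0.10) and Cyba (0.50 ± 0.13) rose with it. Of primary granule genes 4 of 17 were higher (23.5%) and 5 lower (29.4%), shares near the 18.8% and 28.1% of all genes. The cathepsin G gene Ctsg (-1.94 ± 0.31) and the cystatin Cst7 (-1.52 ± 0.43) were among the falls. The glutathione transferases Gstm1 (1.05 ± 0.29) and Mgst1 (1.74 ± 0.36) were among the rises. Cst7 had an adjusted p of 0.0531 by limma without DMSO library 1. The counts were 4 and 8 with the replicate number as a block, and 4 and 10 without library 1 of every group.

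Of monocyte and macrophage genes 14 of 46 were higher (30.4%) and 7 lower (15.2%), beside 18.8% and 28.1% of all genes. The counts were 24 and 9 without library 1 of every group, where 2319 of all 10331 genes were higher and 3414 lower. Emr4, an adhesion receptor of macrophages, was below 1 FPKM in every DMSO library and measured 5.12, 6.55 and 6.84 FPKM with PD325901 and 0.699, 0.653 and 0.804 FPKM with DMSO (log2 difference 2.05 ± 0.12, adjusted p = 9.15e-07 by limma). Arg1, arginase of alternatively activated macrophages, measured 0.0448, 0.258 and 0 FPKM with PD325901 and 17.7, 2.13 and 2.98 FPKM with DMSO (log2 difference -2.49 ± 0.55, adjusted p = 0.00343 by limma), and the log2 difference was -1.65 without library 1 of every group. Cd14 measured 39.1, 32.0 and 30.7 FPKM with PD325901 and 254, 122 and 134 FPKM with DMSO (log2 difference -2.22 ± 0.27, adjusted p = 8.52e-05 by limma). Of Toll-like receptor and adaptor genes 15 of 28 were higher (53.6%) and 3 lower (10.7%), beside 18.8% and 28.1% of all genes. Cd14 was among the falls. Tlr7 (0.74 ± 0.14), Tlr8 (1.19 ± 0.19) and Tlr9 (1.23 ± 0.34) of endosomes and their escort Unc93b1 (0.68 ± 0.13) were among the rises. C-type lectins and scavenger receptors rose in 13 of 38 (34.2%) and fell in 9 (23.7%), or in 21 and 13 without library 1 of every group. Clec7a (dectin-1), the receptor for fungal glucans, measured 117, 103 and 111 FPKM with PD325901 and 19.0, 28.1 and 35.6 FPKM with DMSO (log2 difference 2.00 ± 0.36, adjusted p = 0.000961 by limma). Clec4a3 measured 111, 131 and 139.9 FPKM with PD325901 and 24.0, 37.9 and 39.5 FPKM with DMSO (log2 difference 1.91 ± 0.42, adjusted p = 0.00332 by limma). Cd300a (1.85 ± 0.19) rose and Clec5a (-1.55 ± 0.24) and Msr1 (-2.23 ± 0.15) fell.

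Dendritic cell and MHC class II genes rose in 10 of 28 (35.7%) and fell in 4 (14.3%), beside 18.8% and 28.1% of all genes (median 0.49). Of the 4 falls, 2 were of at least 1. Without library 1 of every group the counts were 19 and 4. With the replicate number as a block they were 16 and 4. The lymph node homing receptor Ccr7 (1.79 ± 0.37), Siglech (1.73 ± 0.21) of plasmacytoid dendritic cells and Slamf7 (1.28 ± 0.38) were among the rises, Slamf7 with an adjusted p of 0.0541 to 0.0565 by limma without PD325901 library 3 or DMSO library 1. Of MHC class I genes, whose members resemble each other and share reads, 4 of 22 were higher (18.2%, near the 18.8% of all genes) and 2 lower (9.1%). The median was 0.04. H2-T22 (0.63 ± 0.19) and H2-T23 (0.48 ± 0.18) were among those higher. Without library 1 of every group 8 were higher and 4 lower. H2-T22 had an adjusted p of 0.0508 to 0.0722 by limma without PD325901 library 1 or DMSO library 1, and H2-T23 had an adjusted p of 0.0636 to 0.147 by limma without PD325901 library 1, 2 or 3 or DMSO library 1, 2 or 3. Few interferon-stimulated genes passed, with 3 of 56 higher and 2 lower, against 46.9% of all genes called. With the replicate number as a block the counts were 5 and 2, and without library 1 of every group 21 and 12. In the latter setting 2319 of all 10331 genes were higher and 3414 lower.

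Some markers of other cell types differed as well. The megakaryocyte and platelet markers, of which 2 of 9 passed the level filter, summed to 15.5 to 43.6 FPKM with PD325901 and 78.8 to 136 FPKM with DMSO, and 7 of the 9 were below 1 FPKM in all 6 libraries. Of the 2 tested, 1 was higher and 1, Pf4, lower, and the lower sums follow Pf4. The highest, Pf4, measured 34.4, 10.8 and 10.1 FPKM with PD325901 and 132, 81.0 and 76.6 FPKM with DMSO (log2 difference -2.50 ± 0.37, adjusted p = 0.000303 by limma). The markers of mast cells, basophils and eosinophils summed to 16.4 to 19.2 FPKM with PD325901 and 48.1 to 251 FPKM with DMSO, with 2 of 5 tested lower and 6 of 11 below 1 FPKM in all 6 libraries. The highest, the mast cell carboxypeptidase Cpa3, measured 2.88, 2.21 and 2.16 FPKM with PD325901 and 139, 16.9 and 14.9 FPKM with DMSO (log2 difference -3.33 ± 0.69, adjusted p = 0.00237 by limma). DMSO library 1 had the highest sum, and no marker of either list was at 0 in all 6 libraries. The part of such cells in the differences described here was not tested.

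**Figure D4:**
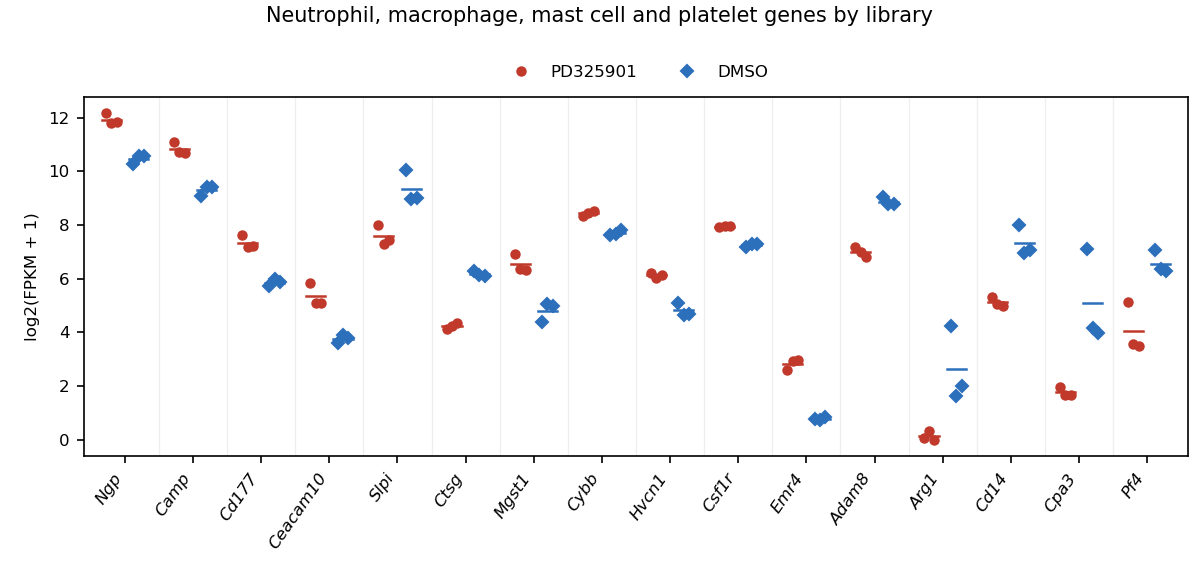
Log2(FPKM + 1) of neutrophil, macrophage, mast cell and platelet genes in each library (points), with PD325901 left of DMSO and the group mean as a bar. Granule genes such as Ngp and Camp are higher with PD325901, while Slpi, Ctsg, Adam8 and Cd14 are lower, and DMSO library 1 stands above DMSO libraries 2 and 3 for Arg1 and Cpa3.

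Transcription factors of myeloid fate rose in 19 of 47 (40.4%) and fell in 4 (8.5%), beside 18.8% and 28.1% of all genes (median 0.27). Cebpa, the factor that drives granulocyte commitment, measured 151, 115 and 127 FPKM in the PD325901 libraries, against 30.9, 46.2 and 45.7 FPKM in the DMSO libraries (log2 difference 1.67 ± 0.18, adjusted p = 3.97e-05 by limma). Klf4, a monocyte factor, measured 33.0, 37.1 and 34.1 FPKM with PD325901 and 19.3, 17.4 and 13.7 FPKM with DMSO (log2 difference 1.02 ± 0.21, adjusted p = 0.00240 by limma). Cebpb (0.72 ± 0.17), the PU.1 gene Sfpi1 (0.27 ± 0.09) and Batf3 (1.03 ± 0.25) rose, with an adjusted p of 0.0612 to 0.0875 by limma without PD325901 library 1 or DMSO library 2 or 3 for Sfpi1. The inhibitors of differentiation split, with Id3 (2.60 ± 0.39) and Id2 (0.47 ± 0.11) higher and Id1 (-1.11 ± 0.16) lower. Irf8 averaged 86.6 ± 4.33 FPKM with PD325901 and 74.0 ± 8.57 FPKM with DMSO (log2 difference 0.23 ± 0.12, adjusted p = 0.126 by limma), and Gfi1 averaged 3.22 ± 0.00631 FPKM with PD325901 and 3.63 ± 0.169 FPKM with DMSO (log2 difference -0.13 ± 0.14, adjusted p = 0.467 by limma).

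In the MLL fusion and HOXA program 10 of 30 were lower (33.3%, near the 28.1% of all genes) and 1 higher (median -0.18). Hoxa9, its best known target, averaged 1.67 ± 0.4004 FPKM with PD325901 and 2.02 ± 0.0262 FPKM with DMSO (log2 difference -0.19 ± 0.12, adjusted p = 0.233 by limma), Meis1 averaged 2.40 ± 1.04 FPKM with PD325901 and 2.64 ± 1.01 FPKM with DMSO (log2 difference -0.11 ± 0.26, adjusted p = 0.767 by limma), and Myb averaged 5.02 ± 0.457 FPKM with PD325901 and 7.65 ± 0.321 FPKM with DMSO (log2 difference -0.53 ± 0.12, adjusted p = 0.00453 by limma). Dot1l, the histone methyltransferase that MLL-AF9 recruits, measured 5.07, 4.90 and 4.89 FPKM with PD325901 and 13.1, 10.0 and 10.5 FPKM with DMSO (log2 difference -1.03 ± 0.31, adjusted p = 0.0171 by limma). Hmgb3 (-1.57 ± 0.16), Mef2c (-0.84 ± 0.18) and Cbx5 (-0.91 ± 0.14) fell with it. Dot1l had an adjusted p of 0.0576 by limma without DMSO library 1. Among stem and progenitor markers 10 of 23 fell (43.5%) and 6 rose (26.1%), beside 28.1% and 18.8% of all genes. Gata2, a stem cell factor that mast cells also express, measured 0.964, 0.913 and 1.06 FPKM with PD325901 and 26.0, 6.58 and 6.80 FPKM with DMSO (log2 difference -2.56 ± 0.52, adjusted p = 0.00218 by limma). Cd34 measured 2.86, 3.60 and 4.36 FPKM with PD325901 and 34.5, 19.6 and 17.9 FPKM with DMSO (log2 difference -2.39 ± 0.40, adjusted p = 0.000688 by limma), whereas Kit (0.91 ± 0.16), Flt3 (0.95 ± 0.16) and Cd48 (0.59 ± 0.09) were higher.

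In the BCL2 family 8 of 20 were lower and 6 higher, with survival and death genes on both sides. Bcl2l1, which encodes the survival protein BCL-XL, measured 11.7, 11.1 and 11.7 FPKM in the PD325901 libraries, against 67.1, 71.3 and 73.3 FPKM in the DMSO libraries (log2 difference -2.51 ± 0.11, adjusted p = 2.66e-07 by limma). Bcl2 itself was below 1 FPKM in every PD325901 library, at 0.320, 0.916 and 0.763 FPKM with PD325901 and 8.02, 6.80 and 6.71 FPKM with DMSO (log2 difference -2.31 ± 0.19, adjusted p = 8.00e-06 by limma). The survival gene Mcl1 (0.33 ± 0.11) rose, but with an adjusted p of 0.0692 to 0.0740 by limma without PD325901 library 2 or 3 or DMSO library 1 or 3. Of the pro-death members, Bmf (1.90 ± 0.18) and Bcl2l11 (BIM) rose, Bcl2l11 to 27.9, 28.7 and 29.5 FPKM with PD325901, against 12.9, 12.8 and 13.2 FPKM with DMSO (log2 difference 1.09 ± 0.10, adjusted p = 1.74e-05 by limma), and Bid (-1.14 ± 0.14) and Bak1 (-0.64 ± 0.12) fell. Among p53 and its targets 8 of 27 were lower (29.6%) and 4 higher (14.8%), shares near the 28.1% and 18.8% of all genes, with the kinase Plk3 (-2.01 ± 0.36) and the p53 ligase Mdm2 (-0.80 ± 0.09) among the falls.

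Other signalling pathways held single large changes. In the PI3K list 11 of 32 were higher (34.4%) and 4 lower (12.5%), beside 18.8% and 28.1% of all genes. Its member Sgk1, a kinase related to AKT, measured 103, 94.6 and 74.9 FPKM in the PD325901 libraries, against 17.9, 19.3 and 16.5 FPKM in the DMSO libraries (log2 difference 2.27 ± 0.16, adjusted p = 3.16e-06 by limma). In the mTOR list 7 of 37 were higher (18.9%) and 11 lower (29.7%), shares near the 18.8% and 28.1% of all genes. After quantile normalization 11 were higher. Its member Eif4ebp1, a translation repressor, fell (-0.62 ± 0.10). In the WNT and Notch list, Rbpj, the DNA-binding factor of Notch, measured 10.7, 14.3 and 14.7 FPKM in the PD325901 libraries, against 86.5, 66.3 and 69.4 FPKM in the DMSO libraries (log2 difference -2.40 ± 0.14, adjusted p = 9.15e-07 by limma), and the Notch ligand Jag1 (-2.21 ± 0.22) fell to 0.163, 0.125 and 0.124 FPKM with PD325901. TGF-beta and BMP genes rose in 10 of 23 (43.5%) and fell in 2 (8.7%), with the receptor Tgfbr1 (0.83 ± 0.10) among the rises. In the actin list 13 of 44 were lower (29.5%, near the 28.1% of all genes) and 6 higher (13.6%, or 10 genes after quantile normalization). The tropomyosin Tpm4 (-0.97 ± 0.10) was lower and Zyx (0.71 ± 0.08) higher. Of circadian genes 5 of 13 were higher (38.5%, beside 18.8% of all genes) and 0 lower, with Dbp (1.21 ± 0.15) and Nfil3 (0.91 ± 0.19) among the rises. The counts were 5 and 1 with the replicate number as a block, and 5 and 1 without library 1 of every group.

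**Figure D5:**
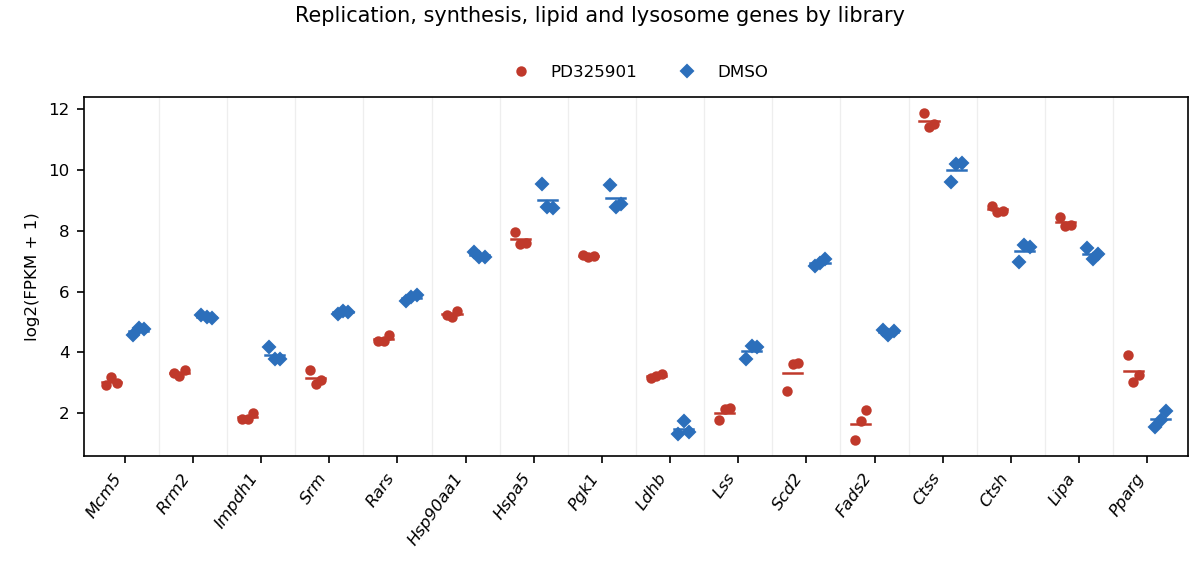
Log2(FPKM + 1) of genes of replication, synthesis, protein folding, glycolysis, lipids and lysosomes in each library (points), with PD325901 left of DMSO and the group mean as a bar. Genes from Mcm5 to Pgk1 and Lss, Scd2 and Fads2 are lower with PD325901, and Ldhb, Ctss, Ctsh, Lipa and Pparg are higher, with no overlap between the groups for any gene drawn.

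PD325901 was also set directly against each of the other inhibitors in the same model. Such a difference does not say which of the drugs changed a gene relative to DMSO. PD325901 differed from RAD001 in 5200 of 10374 genes (50.1%), 2229 higher (21.5%) and 2971 lower (28.6%), and from GDC0941 in 5345 of 10375 genes (51.5%), 2235 higher (21.5%) and 3110 lower (30.0%). Fth1 was left out against RAD001 because it is listed at 0 in all 3 RAD001 libraries. ERK feedback genes were lower with PD325901 than with RAD001 in 10 of 12 (median -1.94) and than with GDC0941 in 9 (median -1.41). Spred1 measured 1.64, 2.06 and 2.45 FPKM with PD325901, against 32.8, 32.4 and 28.2 FPKM with RAD001 (log2 difference -3.40 ± 0.19, adjusted p = 2.00e-07 by limma) and 26.2, 22.4 and 15.0 FPKM with GDC0941 (log2 difference -2.84 ± 0.19, adjusted p = 8.85e-07 by limma). Myc measured 1.202, 1.17 and 0.962 FPKM with PD325901, against 32.1, 39.1 and 35.2 FPKM with RAD001 (log2 difference -4.11 ± 0.10, adjusted p = 1.11e-09 by limma) and 35.3, 33.2 and 36.5 FPKM with GDC0941 (log2 difference -4.09 ± 0.10, adjusted p = 1.15e-09 by limma).

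Few genes of cell division were lower with PD325901 than with either other inhibitor. DNA replication genes were higher with PD325901 than with RAD001 in 6 and lower in 3 of 45 (median 0.22), and higher than with GDC0941 in 2 and lower in 9 (median -0.05). Kinetochore genes were higher than with RAD001 in 21 and lower in 2 of 64 (median 0.55), and higher than with GDC0941 in 5 and lower in 3 (median 0.26). Genes of ribosome assembly did differ. Those of rRNA processing were lower with PD325901 in 54 of 65 against RAD001 (median -0.70) and in 61 against GDC0941 (median -0.98), and cytosolic ribosomal protein genes in 73 and 75 of 80. Sterol genes were lower than with GDC0941 in 18 of 23 (median -0.84) and lower than with RAD001 in 4 (median 0.03).

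Lysosomal genes were higher with PD325901 than with RAD001 in 37 of 60 (median 0.50) and than with GDC0941 in 28 (median 0.40). Late neutrophil genes were higher than with RAD001 in 19 and lower in 9 of 39 (median 0.50), and higher than with GDC0941 in 24 and lower in 4 (median 1.72). Cebpa measured 151, 115 and 127 FPKM with PD325901, against 32.7, 48.7 and 43.2 FPKM with RAD001 (log2 difference 1.64 ± 0.18, adjusted p = 2.50e-05 by limma) and 53.1, 59.8 and 66.7 FPKM with GDC0941 (log2 difference 1.11 ± 0.18, adjusted p = 0.000385 by limma). Interferon-stimulated genes, of which few passed against DMSO, differed from GDC0941, with 47 of 56 higher with PD325901 and 3 lower (median 1.36), and from RAD001 in 13 higher and 7 lower (median 0.26). These comparisons share the PD325901 libraries, and the doses were 20 µM of PD325901, 26 µM of RAD001 and 20 µM of GDC0941.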

How the data were processed

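RNA-seq libraries were made from total RNA of PD325901-, RAD001-, GDC0941- and DMSO-treated cells with Illumina protocols, per the labels' protocols. The authors deposited 1 table of FPKM values by gene symbol, made with TopHat2 2.0.4 and Cuffdiff on mm9, per the submitters' processing notes. Which annotation was used, and how libraries were normalized, is not given in the sources used here. Read depth is unknown, so no counting interval is given. Rows are symbols, and near-identical or overlapping genes may share reads.

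Values were taken as log2(FPKM + 1) for the 10375 genes that averaged 1 FPKM or more in the 6 PD325901 and DMSO libraries. With R 4.3.3 and limma 3.58.1, 1 model with 4 group means was fitted to the 12 libraries (8 residual degrees of freedom, eBayes with a trend), and p-values were adjusted by the Benjamini-Hochberg method over all genes within each comparison, two-sided, at a threshold of 0.05. Means carry the SD of n = 3 and differences the SE of the model. A gene called higher or lower passed this threshold. The procedure was tested on simulated data with known changes.

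Gene lists came from general knowledge. The members and the lists were chosen with earlier results of these data known, so lists are described by counts and medians beside those of all genes, with no set test. Genes were named by rule: the 40 largest rises and falls past the threshold with no overlap and 5 FPKM or more in whichever group was higher, the 6 largest changes past the threshold and the 3 highest genes of each list, the 10 highest genes of each group, and a fixed set of pathway genes. Some of the genes that the rule names, and 1 gene list, are not reported here. Sgsh and Cdh1 lie outside the rule and were chosen after their values were seen.

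Promoter windows are from RefSeq (GRCm38.p6), matched by symbol or single synonym and searched on both strands with Python 3.11.15; no coordinates of mm9 were used. The same replicate numbers deviated together in PD325901 and DMSO, with correlations of 0.319, 0.241 and 0.183 across genes, which passes the rule that every pair exceed 0.1. Crossing libraries 2 and 3 passes it too, since PD325901 library 2 with DMSO library 3 gave 0.171 and PD325901 library 3 with DMSO library 2 gave 0.162. The rule therefore cannot show that the numbers pair libraries 2 and 3, and no label says that they do. Against RAD001 the crossed pairs (0.284 and 0.288) exceeded the same-number pairs (0.158 and 0.149), and the third GDC0941 pair gave -0.144. The fit with the number as a block was an alternative, as were other pseudocounts, filters and scalings, library weights, the 6 libraries alone and leaving libraries out.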

Additional observations from a re-analysis of the deposited data

How the results depend on the processing

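PD325901 against DMSO gave 4868 calls, and 3737 (minimum of 5 FPKM) to 7135 (library weights) under the alternatives, with 3042 instead of 1948 genes higher under the weights. Leaving out 1 library at a time gave 4085 to 4328 calls, with 1573 to 1691 higher and 2439 to 2714 lower, of which 267 to 332 were higher and 578 to 630 lower by at least 1. The replicate block gave 5306 calls (2156 higher, 3150 lower). The 6 libraries alone with the block, an alternative chosen after seeing the data, gave 5920. Quantile normalization gave 2740 higher and 2525 lower. With a pseudocount of 5 FPKM, 149 genes were higher and 257 lower by at least 1, against 307 and 613 with 1 FPKM. Against RAD001 the same setting gave 255 and 406 in place of 542 and 658, and against GDC0941 336 and 327 in place of 658 and 610, since a larger pseudocount shrinks differences of low genes.

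Of the 271 called genes named here, 255 kept the call under every alternative in which they were tested, and none changed sign. The other calls were lost mostly when 1 library was left out, 12 of them without DMSO library 1. Genes under the minimum of 5 FPKM were not tested in that alternative, where the ERK feedback list had 4 lower in place of 8. The replicate block changed no call of the named genes and moved 7 of 168 list counts by over 1.5 times. Differences that did not pass turned sign after quantile normalization for Ctsd (-0.0100), Ftl1 (-0.177) and Meis1 (0.0099), and with 1 library left out Ctsd ranged over -0.0950 to 0.420 and Meis1 over -0.340 to 0.107. The cause was not tested. Depth is unknown, so the counting error of genes of few FPKM cannot be given.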

Other observations

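Of 163 solute carrier genes tested 36 were higher (22.1%) and 41 lower (25.2%), and of 14 semaphorin, plexin and ephrin genes 5 were higher and 4 lower, beside 18.8% and 28.1% of all genes. Single members differed by more. Slc39a14, a carrier of zinc and iron, measured 0.757, 1.32 and 1.05 FPKM with PD325901 and 9.82, 8.47 and 8.78 FPKM with DMSO, and the phosphate carrier Slc20a1 measured 8.93, 9.66 and 9.31 FPKM with PD325901 and 33.9, 27.9 and 29.3 FPKM with DMSO. The groups did not overlap for either gene, and both differences (-2.30 ± 0.16 for Slc39a14 and -1.60 ± 0.13 for Slc20a1) passed an adjusted p under 0.05 by limma. The lysosomal carrier Slc46a3 was higher, at 16.9, 15.2 and 14.0 FPKM with PD325901 and 4.55, 5.47 and 5.005 FPKM with DMSO (1.45 ± 0.11). Without library 1 of every group, 8 of the 14 semaphorin, plexin and ephrin genes were higher and 5 lower, beside 2319 and 3414 of all 10331 genes. The semaphorin receptor Plxnc1 rose, at 35.6, 33.0 and 35.5 FPKM with PD325901 and 13.1, 13.3 and 13.2 FPKM with DMSO (1.33 ± 0.22), whereas the ephrin receptor Epha2 fell, at 0.0463, 0.266 and 0.203 FPKM with PD325901 and 2.68, 3.01 and 2.89 FPKM with DMSO (-1.72 ± 0.11).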
